A study of Mus musculus with 4 samples.

Results

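Retinal ganglion cells are described here from the ganglion cell (RGC) column of a table of isoform counts by retinal cell class. The genes described are those with 100 or more counts in that column. They were 2555 of the 16702 genes in the table, of which 7848 had at least 1 ganglion cell count. The 2555 genes comprised 2534 Ensembl genes and 21 loci named by position, and they held 96.4% of the ganglion cell counts. At the threshold itself, 8 genes had 100 counts, with ratios to the mean of the other columns from 0.51 to 4.33, and 12 genes had 99 counts, with ratios from 0.46 to 1.74.

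Retinal ganglion cells are the output neurons of the retina. They receive glutamate from bipolar cells and inhibition from amacrine cells, fire action potentials, and send long axons through the optic nerve to the brain, where they release glutamate. They are the cells that degenerate in glaucoma and after optic nerve injury. Their identity rests on transcription factors of the Brn3 family (Pou4f1, Pou4f2, Pou4f3) and Isl1, and the RNA-binding protein Rbpms is used to mark them in sections.

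The tissue was retina of wild-type male C57BL6/J mice, dissociated with papain, and single-cell cDNA was read on a nanopore instrument, which sequences a transcript in a long read. Of 4 libraries, 2 were made without enrichment (from postnatal day 40 and from an age that the labels used here do not state), another carries the label CD73 enrichment (postnatal week 8) and the last the label CD90.2 enrichment (postnatal month 4), and no group carried another treatment or allele. The protocol describes magnetic removal of CD73+ cells and magnetic selection of CD90.2+ cells, and the labels do not say how the library labelled CD73 enrichment relates to that removal. The deposited columns are cell classes, named amacrine (AC), bipolar (BC), cone, Müller glia (MG), rod and RGC, and they name no library. Each class is therefore 1 pooled sample without replicates, so differences are described by their size, no p-value is given, and fewer cells of a class cannot be told apart from less RNA per cell. The share of each library in a class is not given, so age and enrichment cannot be told apart from class either.

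The RGC column was the shallowest, with 3509890 counts, against 6133094 to 55437340 in the other columns. Levels are given as CPM, the share of a column's counts times 1e+06. In the RGC column 1 count equals 0.285 CPM, and 100 counts equal 28.5 CPM. A count of 0 allows a level of up to 0.855 CPM, the value of 3 counts. Intervals and this limit cover counting error only, since it is not given whether a count is a read or a molecule. The median model length behind the ganglion cell counts was 917 nt, within the 851 to 982 nt of the other columns, and 0.331% of its counts lay on models over 3000 nt (0.298% to 0.634% elsewhere). Few counts in any column therefore lay on models longer than that, and the lengths of the transcripts behind the models are not given. The part of length in the low values of large axonal, channel and receptor genes below was not tested.

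The label was set beside 6 ganglion cell markers, and all 6 were highest in the RGC column. How cells were assigned to classes is not given in the sources used here. Whether these markers were used for it is therefore not known, and their rank is no independent support for the label. Sncg, which encodes gamma-synuclein, had 15741 CPM in ganglion cells (exact 95% interval 15610 to 15873). Its level was 333 CPM in amacrine cells, 88.9 in rods, 34.7 in Müller glia, 31.2 in cones and 19.9 in bipolar cells. Nefl, the light neurofilament subunit, had 1025 CPM (991 to 1059), and its other columns lay between 7.01 and 40.2 CPM. The ganglion cell value stood above every other column for both genes, by 155-fold over the mean for Sncg and 58.3-fold for Nefl.

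Thy1 encodes CD90, the antigen with which a library was enriched, so its level was used in selection. It was at 910 CPM in ganglion cells and 317 CPM in amacrine cells, and at 0.958 to 3.75 CPM in the remaining columns. The markers with few counts were also highest in ganglion cells, though the next column differed between them. Rbpms had 117 counts, or 33.3 CPM (27.6 to 39.9), against 0.0722 to 3.10 CPM elsewhere. Slc17a6, the vesicular glutamate transporter VGLUT2, had 115 counts, or 32.8 CPM (27.0 to 39.3), against 0.289 to 2.19 CPM elsewhere. Pou4f1 had 63 counts, or 17.9 CPM (13.8 to 23.0), against 0.207 CPM in amacrine cells, 0.0541 in rods and 0 in the other columns, and it fell under the minimum of 100 counts. In build mm10 (GENCODE M21) Sncg lies at chr14:34370274-34374789, Nefl at chr14:68083863-68089095, Thy1 at chr9:44043384-44048579, Rbpms at chr8:33782643-33929863, Slc17a6 at chr7:51622006-51671119 and Pou4f1 at chr14:104461676-104467999. Summed over the 6 markers the ganglion cell column had 17759 CPM, the amacrine column 693 CPM and the lowest column, bipolar cells, 29.9 CPM.

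**Figure D1:**
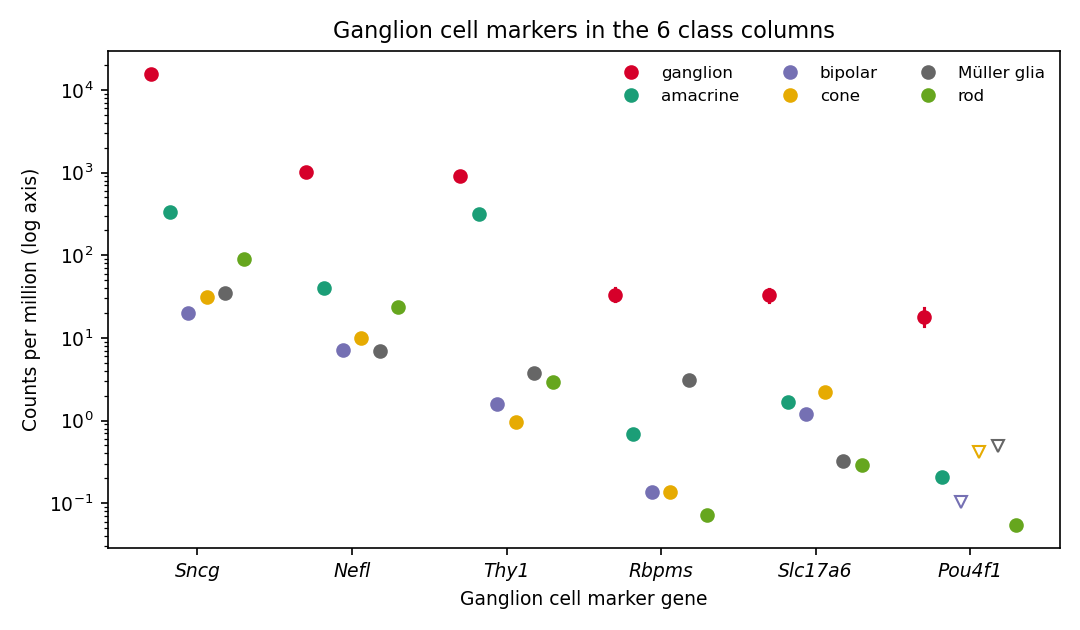
Level of the 6 ganglion cell markers in CPM (vertical log axis) in each of the 6 class columns (colours). Bars on the ganglion cell points are exact 95% counting intervals, and open triangles stand for 0 counts, drawn at the level of 3 counts. The ganglion cell point is the highest for each gene, from 17.9 CPM for Pou4f1 to 15741 CPM for Sncg, and the amacrine point is closest for Thy1, at 317 CPM.

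Markers of other retinal cells were read in the same column. All 6 rod markers, among them Gnat1, Pde6a, Pde6b, Nrl and Sag, were at 0, whereas their sum was 30238 CPM in rods and 191 CPM in amacrine cells, the lowest of the other columns. Cone markers summed to 0.285 CPM with 5 of 6 at 0, and bipolar markers to 2.28 CPM with 5 of 8 at 0. The 8 amacrine markers summed to 43.9 CPM (exact 95% interval 37.2 to 51.4) against 726 CPM in the amacrine column, with 2 of 8 at 0. Markers of starburst and other amacrine types summed to 56.1 CPM against 1240 CPM in amacrine cells, and those of horizontal cells to 49.3 CPM against 384 CPM. For these, 3 of 6 and 2 of 5 markers were at 0. Npy held 188 of the 197 counts behind the sum for starburst and other amacrine types. Calb1 held 119 of the 173 horizontal cell counts, and both genes are also in the ganglion cell lists below. Of the 154 counts of the amacrine markers, Pax6 isoforms held 53, 19, 8 and 5. Müller glia markers summed to 68.7 CPM against 44123 CPM in Müller glia, with 3 of 6 at 0. Microglial markers reached 9.97 CPM with 3 of 6 at 0, oligodendrocyte markers 13.7 CPM with 2 of 4 at 0, pigment epithelium markers 2.85 CPM with 5 of 6 at 0 and red blood cell markers 2.56 CPM with 3 of 5 at 0, and the 3 endothelial and 4 pericyte markers were all at 0. The astrocyte sum of 459 CPM was Aldoc alone, which encodes an aldolase, and the other 3 listed astrocyte markers were at 0. Rod, endothelial and pericyte markers were thus all at 0, while amacrine and glial markers were present well below the level of the amacrine and Müller glia columns. Their part in the results below was not tested.

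The RGC column also held more zeros than the other columns. Of 2883 genes whose mean over the other 5 columns was at least 28.5 CPM, 177 (6.14%) were listed at 0 in ganglion cells. The same count, made for each other column against its own 5 partners, gave 0 to 6 genes (at most 0.206%), and the next shallowest column, Müller glia, had 5. Of the 177 genes, 81 were highest in Müller glia, 52 in rods, 27 in cones, 17 in bipolar cells and 0 in amacrine cells. Photoreceptor genes led them by level elsewhere. Pde6h, the inhibitory gamma subunit of the cone phosphodiesterase, had a mean of 13010 CPM over the other columns, Pde6g, its rod counterpart, 9832 CPM, Pdc (phosducin) 5914 CPM, Rcvrn (recoverin) 5398 CPM and Guca1a, a guanylate cyclase activator, 5390 CPM.

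The cone opsins Opn1mw and Opn1sw had means of 3586 and 3548 CPM, Sag (rod arrestin) with 3228 CPM and Hbb-bs, a beta-globin, with 2765 CPM. A stricter count took the 1743 genes with at least 28.5 CPM in every other column. In ganglion cells 13 of these were at 0, and in no other column was any gene of the equivalent set at 0. Those with the highest minimum elsewhere included Pde6g, Pdc, Rcvrn, Guca1a, Sag, Prph2, Lbhd1, Cd9 and Pde6h. A gene at 0 in this column is therefore called listed at 0 below. How the authors filtered isoforms or cells for this column is not given in the sources used here, and its part in these zeros was not tested.

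**Figure D2:**
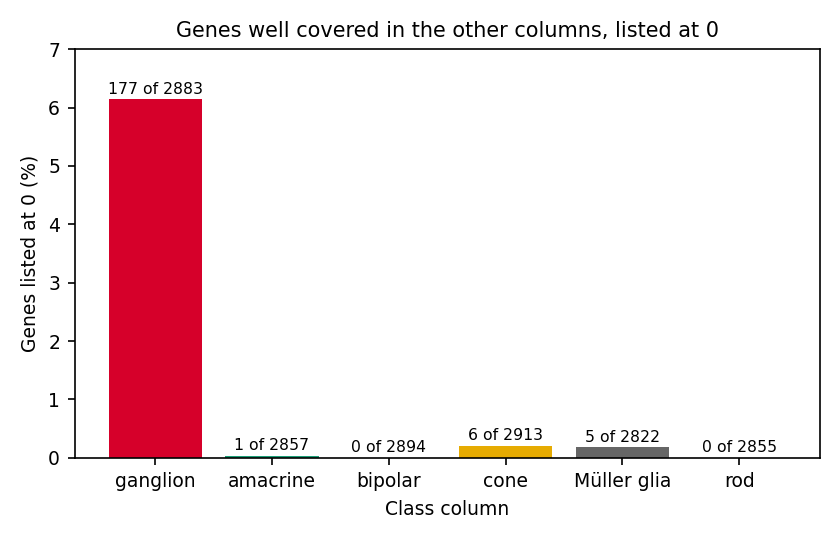
Share of genes listed at 0 in each class column (vertical axis, percent), among genes whose mean over the other 5 columns was at least 28.5 CPM, with the counts of genes above each bar. The ganglion cell bar stands at 6.14% (177 of 2883 genes), and the other bars are at most 0.206%.

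Ganglion cell levels were then compared with the mean of the other 5 columns. Of the 2555 genes, 245 (9.59%) were at least 4-fold higher in ganglion cells and 49 (1.92%) at least 4-fold lower. The median log2 ratio over all 2555 genes was 0.29, with quartiles at -0.32 and 0.99. The minimum on ganglion cell counts favours genes that are high there. When genes were instead chosen by their mean level over all 6 columns, an alternative added after the data were seen, 110 of 2879 genes were at least 4-fold higher and 443 at least 4-fold lower.

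The 245 genes held 15.5% of the ganglion cell counts and 5.22% of the amacrine counts. Of them, 234 had their highest level in ganglion cells, and 54 were at least 4-fold over every other column. Amacrine cells were the next column for 197 genes, Müller glia for 27, bipolar cells and rods for 8 each, and cones for 5. The median fold of the 245 genes was 2.61 over amacrine cells, 14.4 over bipolar cells, 25.01 over Müller glia, 40.1 over rods and 51.8 over cones. With the amacrine column left out of the mean, 408 genes passed, 244 of the 245 among them.

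**Figure D3:**
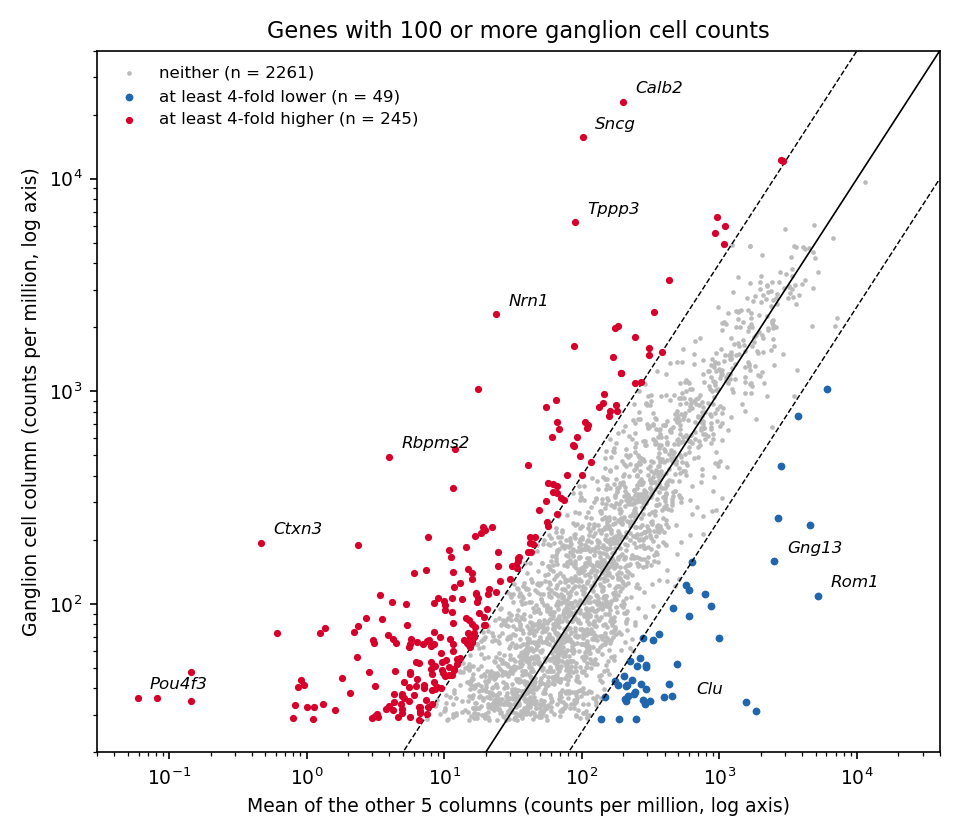
Level in the ganglion cell column (vertical log axis) against the mean of the other 5 columns (horizontal log axis), both in CPM, for the 2555 genes with 100 or more ganglion cell counts. Dashed lines mark 4-fold, the solid line equality. Red points are the 245 higher genes, which reach from Pou4f3 at 36.2 CPM to Calb2 at 23012 CPM, and blue points are the 49 lower genes.

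Among the 245, the genes with the most counts are given first. Calb2, which encodes the calcium buffer calretinin, had 80769 counts or 23012 CPM. Amacrine cells had 802 CPM of it, rods 104 CPM and the other 3 columns 26.9 to 30.0 CPM, so the ganglion cell level was 116-fold above the mean. Calm2, a calmodulin gene, had 12311 CPM in ganglion cells and 9218 CPM in amacrine cells, and its ratio of 4.36 came from the other columns (935 to 1840 CPM). Pcp4, a calmodulin-binding peptide gene, had 12142 CPM against 10253 CPM in bipolar cells and 2529 CPM in amacrine cells, a ratio of 4.19. Both are thus genes of several neuron classes, unlike Calb2, which stood apart from every column.

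Snap25, the SNARE protein of synaptic vesicle fusion, had 6614 CPM in ganglion cells, 3114 CPM in amacrine cells and 35.9 to 595 CPM elsewhere. Tppp3, a tubulin polymerization promoting protein, had 6267 CPM (exact 95% interval 6184 to 6350) against 24.2 to 208 CPM elsewhere, which is 70.1-fold over the mean. The stathmins Stmn1 and Stmn3, which bind tubulin, had 5993 and 5550 CPM against 3232 and 2763 CPM in amacrine cells. For Tppp3 the gap to the next column was far wider than for either stathmin.

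Snrpn, an imprinted gene of a splicing protein that shares its transcripts with Snurf, had 4953 CPM, and Tagln3, a neuronal transgelin, 3321 CPM, with amacrine cells next at 3725 and 1636 CPM. Mt3, a metallothionein, had 2359 CPM, and Müller glia were next at 964 CPM. S100a10, a partner of annexin A2, had 1995 CPM and likewise Müller glia next, at 744 CPM. Nrn1, which encodes neuritin, had 2301 CPM against 8.78 to 46.2 CPM elsewhere, a ratio of 97.4. Uchl1, a ubiquitin hydrolase of neurons, had 2021 CPM against 633 CPM in amacrine cells, and Ywhah, a 14-3-3 protein gene, had 1804 CPM against 708 CPM. Of these 15 genes by counts, Sncg, Calb2, Nrn1 and Tppp3 had the largest ratios.

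The genes with the largest ratios to the mean follow. Pou4f3, a transcription factor also known as Brn3c, had 127 counts or 36.2 CPM (30.2 to 43.1) against 0.187 CPM in amacrine cells, 0.108 in rods and 0 in the other 3 columns, 614-fold over the mean. Serpinb1b, a serine protease inhibitor, also had 127 counts, with at most 0.172 CPM elsewhere and a ratio of 447. Ctxn3, a cortexin, had 682 counts or 194 CPM against at most 1.24 CPM, a ratio of 416. Ratios of this size rest on very low levels elsewhere, with columns at 0 entered as 0 in the mean, and their order depended on that. With 1 CPM added to both sides the log2 ratio of Pou4f3 was 5.13 in place of 9.26, below Sncg (7.26), Ctxn3 (7.06), Calb2 (6.85) and Rbpms2 (6.62), and over the highest other column Serpinb1b (210-fold) was above Pou4f3 (194-fold).

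Prr5, a partner of mTOR complex 2, had 47.6 CPM against at most 0.311 CPM (ratio 331). Prph, the neuronal intermediate filament peripherin, had 34.8 CPM against at most 0.249 CPM (ratio 239). Rbpms2, the paralog of Rbpms, had 1726 counts or 492 CPM, with 10.2 CPM in amacrine cells as the next level (ratio 123). Il12a, an interleukin subunit, had 73.2 CPM against at most 1.39 CPM (ratio 119). Sncg, Calb2 and Nrn1 completed the 10 largest ratios, so these 3 genes led both by counts and by ratio.

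The 49 lower genes were highest in Müller glia (20), rods (13), bipolar cells (8), cones (6) or amacrine cells (2), and 10 were at least 10-fold lower. Hist1h2bc, a histone H2B gene of a family with near-identical copies, had 31.3 CPM in ganglion cells, 339 CPM in amacrine cells and 1845 to 2932 CPM in the other columns, a ratio of 0.0169. Rom1, a disc membrane protein of photoreceptors, had 109 CPM against 17994 CPM in rods and 133 CPM in amacrine cells (ratio 0.0209). Clu, the secreted chaperone clusterin, had 34.5 CPM against 6980 CPM in Müller glia and 125 to 384 CPM elsewhere (ratio 0.0219). Each of these was lower in ganglion cells than in any other column.

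Unc119, which carries lipidated proteins in photoreceptors, had 236 CPM against 673 CPM in amacrine cells and 11774 CPM in rods (ratio 0.0516). The G protein gamma genes Gng13 and Gng5 had ratios of 0.0634 and 0.0688, with 11346 CPM of Gng13 in bipolar cells and 3478 CPM of Gng5 in Müller glia. Gng13 was nevertheless higher in ganglion cells (159 CPM) than in amacrine cells (49.3 CPM). Cxcl14, a chemokine gene, had 36.8 CPM against 2223 CPM in amacrine cells and 4.11 to 34.9 CPM in the other columns. Its ratio of 0.0806 therefore rested on amacrine cells alone, and its log2 ratio of -3.63 became 2.03 with the median of the other columns.

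Ddx5, an RNA helicase, had 36.5 CPM, close to the 36.9 CPM of amacrine cells and below the 316 to 796 CPM of the other columns. Hmgn1, a nucleosome-binding protein, had 254 CPM against 1215 to 4662 CPM, and was lower than in any other column. Cck, the cholecystokinin gene, had 41.9 CPM against 1528 CPM in bipolar cells and 503 CPM in amacrine cells, and 41.1 to 47.4 CPM in the other 3 columns.

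Gene lists chosen for ganglion cell biology are given next by their counts and their median log2 ratio, beside 9.59% higher, 1.92% lower and a median of 0.29 over all 2555 genes. Medians are over all members listed in the table, with members at 0 counts entered at 3 counts. A member under 28.5 CPM in every other column reaches 100 counts only where it is higher in ganglion cells. It cannot be called lower, and a higher call follows in part from the minimum. Such members were 18 of the 19 transcription factors and RNA-binding proteins listed. They were 14 of 18 glutamate release, 7 of 7 sodium channel, 18 of 20 receptor and 14 of 28 axon genes. They were also 11 of 15 potassium channel, 10 of 17 injury and 8 of 17 subtype genes, and 1 to 5 members of each other list. Of 26 transcription factors and RNA-binding proteins, 19 were listed, 7 had 100 counts, 5 were higher and 0 lower, and 3 were at 0. Over the 19 the median log2 ratio was 3.64, and over the 7 it was 5.34. The 5 were Pou4f3, Rbpms2, Elavl2, Rbpms and Elavl4. Elavl2 and Elavl4, neuronal RNA-binding proteins of the Hu family, had 41.6 and 40.7 CPM against 4.27 and 26.3 CPM in amacrine cells, so amacrine cells shared Elavl4 more than Elavl2.

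Klf7 and Elavl3 were higher than the mean but under 4-fold, with log2 ratios of 1.80 and 1.69. Several identity factors fell under the minimum of 100 counts. Pou4f2 (Brn3b) had 33 counts against at most 0.269 CPM elsewhere, and Isl2 had 27 counts with 2.46 CPM in cones as the highest other level. Pou4f1, Pou4f2 and Pou4f3 were each at under 0.5 CPM in every other column. Isl1, which bipolar cells also express, was listed at 0 in ganglion cells and had 10.5 CPM in bipolar cells. Satb1 and Atoh7 were also listed at 0, and Atoh7 is a factor of early ganglion cell development.

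In the list for glutamate release, 18 of 20 genes were listed, 7 had 100 counts, 6 were higher and 0 lower, and 5 were at 0. The median log2 ratio was 1.71 over the 18 and 3.38 over the 7. Among the 6 were Slc17a6, Vamp1, Cplx1, Stx1a and Snap25. Cplx1, a complexin that clamps vesicle fusion, had 216 CPM against 87.5 CPM in amacrine cells and at most 2.15 CPM elsewhere. Vamp1, a synaptobrevin of the vesicle membrane, had 65.2 CPM against 2.19 to 6.39 CPM (ratio 14.7), whereas Vamp2 had 1416 CPM against 2749 CPM in amacrine cells, a ratio of 1.59. Of the vesicular glutamate transporters, VGLUT2 (Slc17a6) was present, and VGLUT1 (Slc17a7) and VGLUT3 (Slc17a8) were listed at 0. Their highest levels were 13.8 CPM in cones for Slc17a7 and 12.7 CPM in Müller glia for Slc17a8. Sv2c had 12 counts, and its ratio is not printed, since the other columns together held too few counts for one. It still entered the list median.

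All 15 neurofilament and tubulin genes were listed, 13 had 100 counts, 5 were higher and 0 lower, and 1 was at 0. Their median log2 ratio was 0.91 over the 15 and 1.15 over the 13. The higher genes were the filament genes Prph, Nefl, Nefm and Ina and the neuronal tubulin gene Tubb3. Nefm, the medium neurofilament subunit, had 65.5 CPM against 1.64 to 5.72 CPM, and Ina, alpha-internexin, had 120 CPM against 0.489 to 37.1 CPM. Nefh, the heavy subunit, had 11 counts and a log2 ratio of -0.96. Tubb3 had 358 CPM against 17.6 to 118 CPM, with bipolar cells highest of the others. The other tubulin genes with 100 counts had log2 ratios from -0.64 (Tubb4b) to 1.57 (Tubb4a), and tubulin genes have near-identical copies between which reads may be split.

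Among 30 axon and microtubule regulators, 28 were listed, 6 had 100 counts, 5 were higher and 0 lower, and 10 were at 0. The median log2 ratio was 1.08 over the 28 and 2.51 over the 6. The 5 were Gap43, Map1a, Stmn3, Stmn1 and Stmn4. Gap43, a membrane protein of growing axons, had 606 CPM against 267 CPM in amacrine cells and 2.87 to 20.1 CPM elsewhere (ratio 10.1). Map1a, a microtubule-associated protein, had 35.0 CPM against 2.07 to 10.6 CPM. Stmn2 had 57 counts and a ratio of 12.9, with amacrine cells next at 5.91 CPM.

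Of members at 0 or with few counts in this list, Map1b and Map2 were listed at 0 although cones had 64.3 CPM of Map1b and rods 71.5 CPM of Map2. Kif5a, Dync1h1 and Sptan1 were listed at 0 as well, but no other column exceeded 0.978 CPM for any of them. Mapt, which encodes tau, had 14 counts, or 3.99 CPM, and a log2 ratio of -4.51, against 198 CPM in bipolar cells.

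Of 16 synucleins and soma or axon markers, 15 were listed, 12 had 100 counts, 10 were higher and 0 lower, and 0 were at 0. The median log2 ratio was 3.06 over the 15 and 3.18 over the 12, and part of this list holds the markers already given. Sncb, beta-synuclein, had 3250 CPM in ganglion cells but 6580 CPM in amacrine cells and 3289 CPM in bipolar cells. Sncg and Sncb thus differed in their ratios, at 155 and 1.35. Chrna6, an acetylcholine receptor subunit, had 73.5 CPM against at most 7.52 CPM (ratio 33.3), and its partner Chrnb3 had 20 counts. Fxyd6 was the member with the lowest ratio, at 26.5 CPM against 1187 CPM in Müller glia.

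Ion channels and receptors had few counts. Of 9 sodium channel genes, 7 were listed, 1 had 100 counts and 5 were at 0. Over the 7 the median log2 ratio was 0.60. The pore-forming subunits Scn1a and Scn8a were listed at 0, and no other column exceeded 8.14 CPM for either. Of 20 potassium and HCN channel genes, 15 were listed, 2 had 100 counts, 1 was higher and 4 were at 0, with a median log2 ratio of -0.47. The higher gene was Kcnip4, a cytosolic channel partner, with 166 CPM against 25.9 CPM in amacrine cells and 19.2 CPM in bipolar cells, whereas Kcna6 had 120 CPM against 662 CPM in amacrine cells.

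Of 21 glutamate, GABA and glycine receptor genes, 20 were listed, 1 had 100 counts and 8 were at 0, with a median log2 ratio of 1.13. The 1 was Gabra2, a GABA-A receptor subunit, with 132 counts or 37.6 CPM against 24.0 CPM in amacrine cells and at most 0.253 CPM elsewhere. Glrb, the glycine receptor beta subunit, had 76 counts with amacrine cells next at 17.5 CPM. The NMDA receptor genes Grin1, Grin2a and Grin2b and the AMPA receptor gene Gria2 were listed at 0, and no other column exceeded 11.03 CPM for these.

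Of 18 genes for calcium-binding proteins, 17 were listed, 12 had 100 counts, 8 were higher and 0 lower, and 2 were at 0. Over the 17 the median log2 ratio was 2.07, and over the 12 it was 2.42. Pvalb, parvalbumin, had 537 CPM against 35.8 CPM in amacrine cells and 1.79 to 13.1 CPM elsewhere (ratio 44.8). Necab2 had 142 CPM with Müller glia next at 44.8 CPM. The neuronal calcium sensors Vsnl1, Hpcal1 and Hpca had 664, 610 and 53.0 CPM, and their ratios were 9.67, 6.60 and 6.59. Calb1, calbindin, had 33.9 CPM against 72.1 CPM in amacrine cells, so the calbindin-type buffers differed, with Calb2 and Pvalb far above the other columns and Calb1 at a log2 ratio of 0.35.

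Markers of ganglion cell subtypes were uneven. Of 24 genes, 17 were listed, 5 had 100 counts, 2 were higher and 1 lower, and 3 were at 0. The median log2 ratio was -0.87 over the 17 and 1.29 over the 5. Opn4, melanopsin of intrinsically photosensitive ganglion cells, had 55 counts or 15.7 CPM (11.8 to 20.4), against 1.58 CPM in amacrine cells and at most 0.137 CPM elsewhere. Adcyap1, the PACAP gene of the same cells, had 42 counts or 11.97 CPM against at most 0.269 CPM. Both were thus highest in ganglion cells, though under 100 counts.

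Cartpt, a marker of direction-selective ganglion cells, had 1448 CPM against 647 CPM in amacrine cells and 30.3 to 77.4 CPM elsewhere (ratio 8.55). Penk, the enkephalin precursor, had 130 CPM against 59.0 CPM in Müller glia and 2.51 to 9.07 CPM in the other 4 columns. Npy was the lower gene, with 53.6 CPM against 1035 CPM in amacrine cells. Its levels in bipolar cells, cones and rods (61, 38 and 184 counts in deeper columns) were below that of ganglion cells (188 counts). Müller glia (438 counts) lay above ganglion cells, and the lower call rested on the amacrine column. Spp1, osteopontin of alpha ganglion cells, had 1 count, and Kcng4 was listed at 0, so alpha cell markers were at or near 0.

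For neurotrophin and injury response genes, 17 of 19 were listed, 4 had 100 counts, 1 was higher and 0 lower, and 5 were at 0. Their median log2 ratio was -0.80 over the 17 and 0.02 over the 4. Gal, the galanin precursor, was the higher gene, with 72.7 CPM against 4.52 CPM in amacrine cells (ratio 58.0). Atf3, a transcription factor induced by axon injury, and Tspo were listed at 0, while Müller glia had 109 and 422 CPM, and Jun had 4 counts against 422 CPM in Müller glia. Bdnf had 34.5 CPM and Ddit3, a stress factor also called CHOP, had 291 CPM, with log2 ratios of 0.29 and -0.25.

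As a list not chosen for ganglion cells, 24 oxidative phosphorylation subunits were all listed, 21 had 100 counts, and 0 were higher and 0 lower. Their median log2 ratio was -0.00 over the 24 and 0.01 over the 21. The highest tested value was that of Ndufa1, at 0.51. Across the lists, the medians over listed members were highest for identity factors and for synucleins. These lists hold the markers Rbpms, Pou4f1, Sncg and Thy1 and were chosen with earlier results known. Their place is therefore no support for the label. With 1 CPM added to both sides their order turned, at 2.08 for identity factors and 2.89 for synucleins. Medians were below 0 for the potassium channel, subtype and injury lists, which were above 0 with the median of the other columns as reference.

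**Figure D4:**
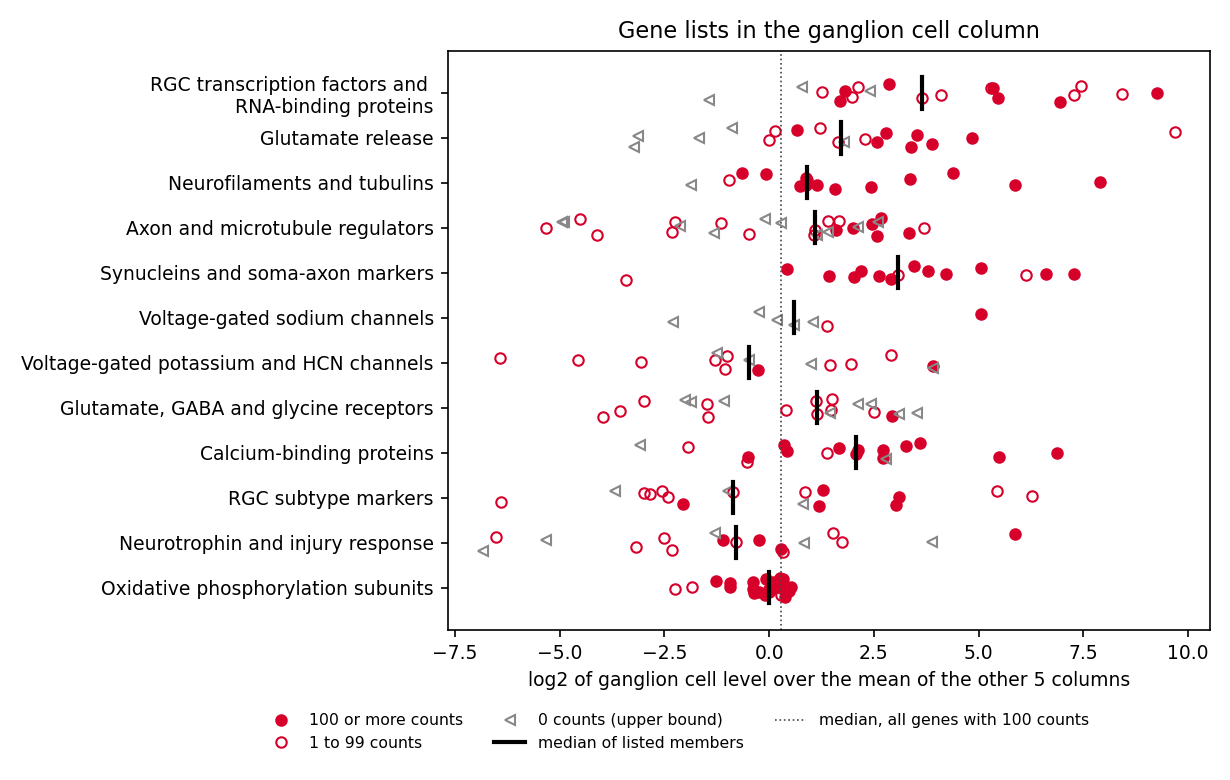
Log2 ratio of the ganglion cell level to the mean of the other 5 columns (horizontal axis) for the listed members of 12 gene lists. Filled points have 100 or more ganglion cell counts, open points 1 to 99, and grey triangles 0 counts, drawn at their upper limit. Black bars are list medians, from -0.87 for subtype markers to 3.64 for transcription factors and RNA-binding proteins, and the dotted line is the median of all 2555 genes, 0.29.

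Long reads also show which isoform of a gene dominates. In 1578 genes with at least 100 counts in ganglion cells, at least 100 in the other columns together and 2 or more isoforms, the most abundant isoform was the same as in the mean of the other columns for 1395 and differed for 183. In 50 of the 183, which is 3.17% of the 1578 genes, the share of either leading isoform, whichever differed more, differed by at least 50 percentage points. For the 1395 genes the share of the dominant isoform differed by a median of 5.48 points. Of the 144 genes that were at least 4-fold higher and entered this comparison, 11 were among the 50 (7.64%).

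The exons that carry the clearest cases are printed here, as coding sequence of GENCODE M21 transcripts (build mm10), 5′ to 3′ on the transcript strand. Capitals are the exon, or the part of an exon, present in only 1 of the pair of isoforms compared. Lower case is up to 20 nt of coding sequence on each side.
Pkm exon of the ganglion cell isoform, chr9:59675029-59675195: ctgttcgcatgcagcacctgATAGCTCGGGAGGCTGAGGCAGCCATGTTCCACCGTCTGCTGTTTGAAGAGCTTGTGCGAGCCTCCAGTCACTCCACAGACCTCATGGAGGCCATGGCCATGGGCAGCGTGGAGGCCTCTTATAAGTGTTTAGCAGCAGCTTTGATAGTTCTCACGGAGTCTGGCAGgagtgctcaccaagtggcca
Pkm exon of the isoform of the other columns, chr9:59675568-59675734: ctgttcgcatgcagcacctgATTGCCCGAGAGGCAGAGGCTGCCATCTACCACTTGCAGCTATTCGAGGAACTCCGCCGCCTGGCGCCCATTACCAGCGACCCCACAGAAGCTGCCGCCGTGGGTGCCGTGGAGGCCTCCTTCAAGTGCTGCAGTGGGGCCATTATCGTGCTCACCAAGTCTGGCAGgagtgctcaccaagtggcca
Nptn bases absent from the ganglion cell isoform, chr9:58650497-58650508: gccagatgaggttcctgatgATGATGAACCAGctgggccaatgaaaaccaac
Ndrg4 exon of the ganglion cell isoform, chr8:95712325-95712363: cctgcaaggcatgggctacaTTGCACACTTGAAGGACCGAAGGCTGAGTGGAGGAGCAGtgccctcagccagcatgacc
Nsfl1c exon of the ganglion cell isoform, chr2:151502455-151502460: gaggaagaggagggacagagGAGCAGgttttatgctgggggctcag
Vps29 exon absent from the ganglion cell isoform, chr5:122356794-122356805: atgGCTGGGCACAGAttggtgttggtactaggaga
G3bp2 exon of the ganglion cell isoform, chr5:92063337-92063435, minus strand: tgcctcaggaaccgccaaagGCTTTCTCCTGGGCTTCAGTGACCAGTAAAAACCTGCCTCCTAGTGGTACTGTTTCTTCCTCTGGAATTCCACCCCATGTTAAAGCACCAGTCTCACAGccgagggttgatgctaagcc
Arl6 exon absent from the ganglion cell isoform, chr16:59618666-59618678, minus strand: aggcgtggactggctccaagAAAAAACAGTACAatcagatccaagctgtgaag

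Pkm encodes pyruvate kinase, the last enzyme of glycolysis. Its isoforms PKM1 and PKM2 differ by mutually exclusive exons, and PKM1 is the form of most adult neurons and muscle. The exons printed above are both 167 nt long, the ninth of 11, and 103 of their 167 bases are identical. The isoform with the upstream exon (ENSMUST00000163694.3) held 4115 of 4122 Pkm counts in ganglion cells, 99.8% (99.7 to 99.9%). It held 60.9% in amacrine cells, 9.33% in bipolar cells, 8.27% in rods, 6.61% in Müller glia and 6.38% in cones. Ganglion cells were thus nearly pure for it, amacrine cells mixed, and the other 4 columns used the downstream exon for most of their counts.

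Nptn encodes neuroplastin, a synaptic adhesion protein. The ganglion cell isoform joins an acceptor site 12 nt further into the exon, so that the 12 bases in capitals above are spliced out. It held all 176 counts in ganglion cells (97.9 to 100%), 45.4% in amacrine cells, 10.3% in bipolar cells, 9.43% in rods, 9.26% in cones and 1.36% in Müller glia. The isoform with the 12 bases was at 0 of 176 counts in ganglion cells and held 94.2% in Müller glia. That share was highest in Müller glia and lowest in ganglion cells.

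Ndrg4, a neuronal member of the NDRG family, had a 39-nt exon in its ganglion cell isoform, which held 268 of 277 counts (96.8%, 93.9 to 98.5%). That isoform held 14.8% in amacrine cells (835 counts), 2.06% in bipolar cells (10 counts) and 41.0% in rods (143 counts in the deepest column). It held 31.6% in cones and 27.3% in Müller glia, with 6 counts in each. By share, amacrine cells were thus not the nearest column here, though the other columns had few counts. Nsfl1c encodes p47, a cofactor of the ATPase p97, and its ganglion cell isoform includes an exon of 6 nt. It held 99.1% of 863 counts in ganglion cells and 97.8% in amacrine cells, against 23.2 to 35.2% in the other 4 columns. Vps29, a retromer subunit, skipped a 12-nt exon in its ganglion cell isoform. That isoform held 95.3% of 1972 counts in ganglion cells and 92.6% in amacrine cells. Elsewhere it held 11.04 to 52.5%, a wider range than for Nsfl1c. All 3 exons are multiples of 3 nt in length.

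Of the remaining 12 genes with the largest difference in share, Cyp20a1, an orphan cytochrome P450, skipped a 167-nt exon in all 100 of its ganglion cell counts (96.4 to 100%) and in 74.9% of amacrine counts, against 2.15 to 17.8% elsewhere. Faim, an apoptosis inhibitor, and Guk1, guanylate kinase, used another first exon. The ganglion cell isoform of Faim held 99.8% in ganglion cells and 94.3% in amacrine cells. Bipolar cells had 68.7% on it, cones 38.6%, rods 8.84% and Müller glia 4.37%. That of Guk1 held 99.96% in ganglion cells, 98.6% in amacrine cells and 22.7 to 61.8% elsewhere. Pcbp3, an RNA-binding protein, used an isoform at 94.7% in ganglion cells, 0.827% in amacrine cells and 59.6% in Müller glia. This isoform has another first exon, a 79-nt internal exon of its own and a donor site 69 nt away. It was compared with the leading isoform of the other columns, which held 36.0% there. Ganglion and amacrine cells thus both had over 90% on the Faim and Guk1 isoforms, and not on that of Pcbp3.

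Gng13 used another first exon in 86.2% of 558 ganglion cell counts, against 2.57 to 21.7% elsewhere. Amz2, a metalloprotease, had a 9-exon isoform at 99.4% in ganglion cells, 72.8% in amacrine cells, 48.8% in Müller glia and 4.42 to 27.9% elsewhere. The mean of the other columns favoured a 2-exon isoform that shares no exon with it. Ppp1r21, an endosomal protein, likewise had isoforms without a shared exon, and that of ganglion cells held 95.6% there, 49.3% in amacrine cells and 0 to 9.14% elsewhere. Vamp1 used an isoform of 5 exons at 91.7% of 229 counts, against 40.1% in amacrine cells and 0 to 6.25% elsewhere. Neither this isoform nor the 4-exon isoform of the other columns has an internal exon of its own. The 4-exon isoform has an exon that starts 464 nt earlier and covers an intron of the ganglion cell isoform. Prelid2, a PRELI domain protein, used another first exon at 80.2% of 167 counts. Alg3, an enzyme of glycosylation, was divided, and its leading ganglion cell isoform held only 26.0% of 146 counts. The leading isoform of the other columns held 2.74% in ganglion cells and 54.5 to 94.4% elsewhere.

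By ganglion cell counts, Pkm, Guk1, Vps29, Nsfl1c, Apbb2 and Tpm3 led the 50 genes. Apbb2, a partner of the amyloid precursor protein, had an isoform at 84.5% of 723 counts that shares no exon with the one favoured elsewhere, and amacrine cells had it at 71.9%. Tpm3, a tropomyosin, used another last exon at 70.6% of 632 counts, against 0.394 to 32.1% elsewhere. Amacrine cells had it at 27.5%, so unlike for the other 5 genes it was not their major isoform.

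G3bp2 and Arl6 were chosen after their values were seen. G3bp2, a stress granule protein, included the 99-nt exon printed above in its leading isoform at 92.4% of 170 counts, against 57.4% in amacrine cells and 8.11 to 23.8% elsewhere. Arl6, the BBS3 protein of ciliary transport, has a long isoform with a 13-nt exon that is known as the photoreceptor form, and 13 is not a multiple of 3. That isoform held 121 of 460 counts in ganglion cells (26.3%, 22.3 to 30.6%), 57.9% in Müller glia, 66.6% in amacrine cells, and 98.2 to 98.9% in bipolar cells, rods and cones. Ganglion cells had the lowest share of the 6 columns.

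**Figure D5:**
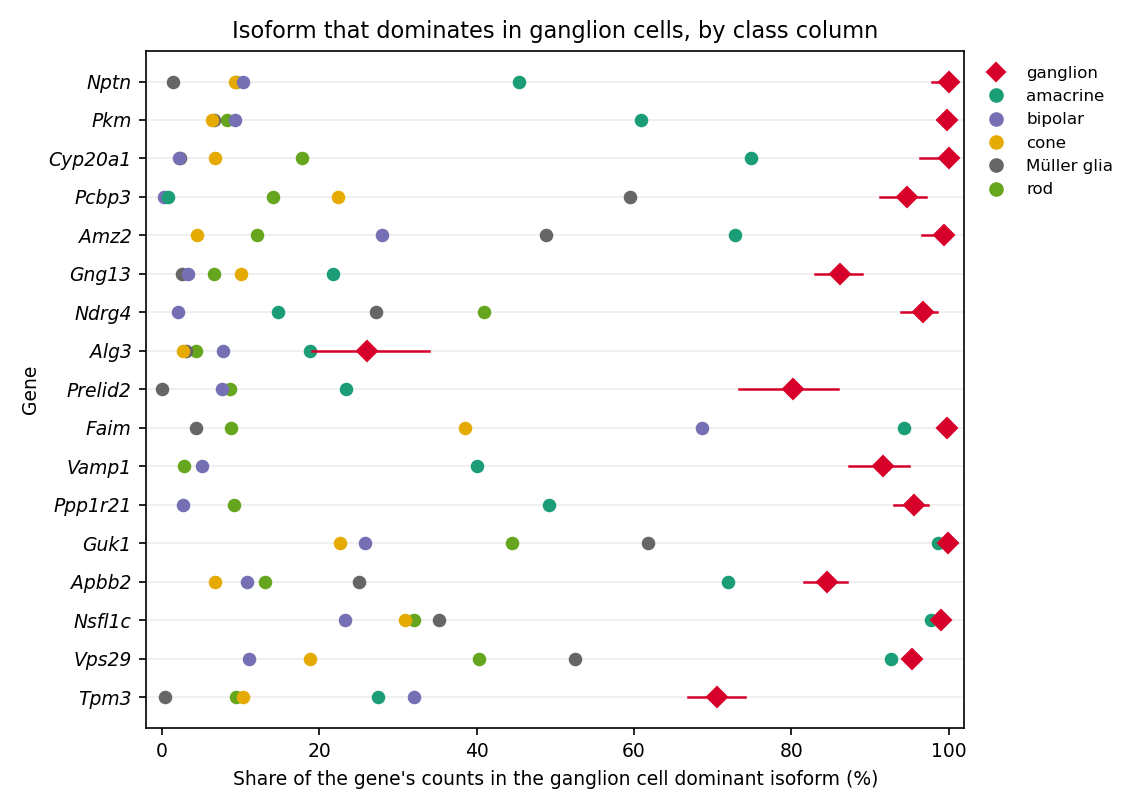
Share of a gene's counts held by the isoform that dominates in ganglion cells (horizontal axis, percent), for the 12 genes with the largest difference and the 6 with the most counts (Pkm is in both). Diamonds are ganglion cells with exact 95% binomial intervals, circles the other columns with at least 20 counts. Amacrine cells sit next to ganglion cells for Guk1, Nsfl1c, Vps29 and Faim, and far from them for Pcbp3 (0.827%) and Ndrg4 (14.8%).

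Over the 50 genes, the isoform pairs differed by an internal exon in 20, by another first exon in 20 and by another last exon in 10, and 3 shared no exon. A gene can count in more than 1 of these. The ganglion cell isoform had more exons in 20 genes, fewer in 14 and as many in 16. Amacrine cells had the ganglion cell isoform as their own most abundant in 25 of 50 genes and that of the mean of the others in 21. The ganglion cell isoform led in 12 of 49 genes in bipolar cells, 7 of 48 in Müller glia, 4 of 42 in cones and 3 of 50 in rods, counting genes with at least 20 counts in that column. Without the amacrine column the mean of the others gave 83 genes, of which 48 were among the 50. The 50 genes had a median of 202.5 ganglion cell counts, so the shares of most of them rest on few counts.

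Genes were concentrated on their leading isoform. Over the 1584 genes with 100 ganglion cell counts and 2 or more isoforms, the median share of the dominant isoform was 87.2%, and 33.8% of genes had it at 95% or more. As deposited, the median was 75.9% in amacrine cells, 76.0% in rods, 80.9% in bipolar cells, 85.2% in cones and 89.2% in Müller glia. Thinned to the ganglion cell total, these columns had 84.9%, 85.4%, 88.1%, 87.6% and 90.15%, which leaves ganglion cells inside their range.

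Among the ganglion markers, Sncg, Nefl, Thy1 and Pou4f1 had 1 isoform each. Slc17a6 had 90.4% of its counts on an annotated isoform (ENSMUST00000032710.6). Rbpms was divided over 4 isoforms in ganglion cells, all outside the annotation, of which the largest held 43.6% of 117 counts, and Elavl2 over 10 isoforms with 28.8% on the largest. Snap25 had a pair of annotated isoforms with 8 exons each. The lesser isoform (ENSMUST00000110098.3) held 7.11% of ganglion cell counts against 29.2% of amacrine counts, 13.5% of bipolar counts and 2.58 to 7.73% in the other columns, so the ganglion cell share lay within the range of cones, rods and Müller glia and below that of amacrine cells.

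Isoforms without an Ensembl identifier were the dominant one in 136 of the 1578 genes (8.62%, exact 95% interval 7.28 to 10.1%), and they held 4.84% of all ganglion cell counts. Over all Ensembl genes with 100 counts, those with 1 isoform included, an isoform without an identifier was dominant in 160 of 2534 (6.31%). The 5 with the most ganglion cell counts were those of Nap1l5 (6146 counts), Serp2 (4366), Cst3 (3617), Mllt11 (3072) and Gm10053 (2451). Cst3 encodes the protease inhibitor cystatin C, and Nap1l5 and Gm10053 have a single exon in these isoforms. Cst3, Mllt11 and Gm10053 have no other isoform in the table. The Nap1l5 isoform held 98.1% of its gene in ganglion cells and 90.4 to 97.7% elsewhere, and the Serp2 isoform 84.3% and 86.4 to 97.7%. An 11-exon isoform of Tecr, an enzyme of fatty acid elongation, was chosen after its values were seen. It held 1502 of 4692 Tecr counts in ganglion cells (32.0%) and 0 to 2.82% in the other columns.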

How the data were processed

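The authors deposited whole-number counts per isoform for 6 cell classes, and a table of transcript models. The build is mm10, per the submitters' processing notes. The aligner, cell typing, filters and collapsing of reads to molecules are not given in the sources used here. Isoform and gene identifiers were read from the row names, isoforms were summed per gene, and counts were divided by the column total (CPM). Per the labels, 4 libraries were made, but no column names a library, so columns were taken as pooled. No test was run, although a count test had been planned for the case that libraries were separate. 0 columns were left unused. Symbols, exons and coding sequence came from GENCODE M21 (13448 of 13452 Ensembl genes matched). Of 44325 isoforms, 36426 had a deposited model, and all 50 isoform pairs called had models in these or in M21.

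Genes with 100 or more RGC counts were compared with the mean CPM of the other 5 columns. Calls were 4-fold, or another dominant isoform with a difference of 50 percentage points in the share of either leading isoform. A ganglion cell count of 0 entered at 3 counts, and a 0 in another column entered the mean as 0. Where that mean was itself 0, it was replaced by the mean level of 3 counts per column, and the ratio is then a lower bound. Intervals are exact Poisson (levels) or Clopper-Pearson (shares), at 95%. The depth of each column, from 3509890 to 55437340 counts, sets their width. Annotated isoforms are those with an Ensembl transcript identifier. The genes and lists were chosen with earlier results of these data known. Named were the 6 markers, the 15 higher genes with the most counts, the 10 largest and 10 smallest ratios, the 10 genes at 0 with the highest mean elsewhere, the 12 isoform changes with the largest difference and the 6 with the most counts, 5 unannotated isoforms, and list members with high or low ratios. Some genes that this rule names are not reported here. The calls were tested on simulated data with changed genes. Alternatives were scalings by TMM (edgeR 4.0.16) and by median of ratios (DESeq2 1.42.0 formula), other references, minimums, folds and pseudocounts. Python 3.11.15, pandas 2.3.3, numpy 2.4.6 and scipy 1.17.1 were used.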

Additional observations from a re-analysis of the deposited data

How the results depend on the processing

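No paired analysis was possible because replicate numbers exist for libraries and not for the class columns. Without replicates none could be left out, and each other column was left out in turn instead. The 245 higher genes became 438 with the median and 54 with the highest of the other columns as reference, 408 without the amacrine column, 90 with a minimum of 500 counts, and 631 and 74 at 2-fold and 10-fold. The 49 lower genes became 30 with the median, 171 with the highest, 90 and 7 with minimums of 50 and 500 counts, and 228 and 10 at 2-fold and 10-fold. Genes chosen by mean level, added after the data were seen, gave 110 higher and 443 lower. TMM scaling gave 272 higher genes, all 245 among them, and 44 lower, all among the 49, with the median log2 ratio shifted by 0.09. The 50 isoform changes became 112 and 9 with minimums of 50 and 500 counts, 130 and 14 at 25 and 75 points, and 83 without the amacrine column. Summing isoforms with the same introns kept all 50. With the counts of the other columns summed in place of their mean, 38 genes were called, 37 of the 50 among them. Nsfl1c (49.7 points), Vps29 (46.6), Tpm3 (46.3) and Apbb2 (45.8) then fell below 50 points, while Pkm (88.3) and Guk1 (56.6) stayed above. Annotated isoforms alone gave 34 genes, 31 of the 50 among them. Both isoforms of the pair were annotated in 29 of the 50. The dominant share was 89.9% at 500 counts. The unannotated share was 12.04% and 5.11% with minimums of 50 and 500 counts, and 4.84% by counts. The marker sum was 18707 CPM with TMM scaling. With the median of the other columns, list medians (log2) were 5.63 for transcription factors and RNA-binding proteins, 3.04 for glutamate release, 5.70 for synucleins and soma-axon markers, 2.64 for sodium channels, 1.14 for potassium channels, 2.76 for receptors, 3.65 for calcium-binding proteins, 1.06 for subtype markers and 0.30 for injury genes. With the highest of the other columns they were 1.64 for transcription factors, -0.092 for glutamate release, 0.26 for neurofilaments and tubulins, -0.47 for axon regulators, 1.52 for synucleins, -1.20 for sodium channels, -2.37 for potassium channels, -0.60 for receptors, 0.24 for calcium-binding proteins, -2.39 for injury genes and -0.69 for oxidative phosphorylation. A pseudocount of 1 CPM gave 2.08 for transcription factors. The log2 ratio of Cxcl14 turned from -3.63 to 2.03 with the median of the other columns, of which its amacrine level is the highest. The causes of the other changes were not tested. At this depth a gene under 28.5 CPM has fewer than 100 counts, so low identity factors, channels and receptors were counted with wide intervals.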
